A study of Mus musculus with 112 samples.

Results

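The AP-2 factors Tfap2a, Tfap2b and Tfap2c were followed across mouse pluripotent stem cell lines and single embryos. They were chosen by name, through the symbols printed beside the probes of the array, where they carry their older names TCFAP2A, TCFAP2B and TCFAP2C. They are 3 of the 28888 genes on the array and have 13 of its 45281 probes: 4 for Tfap2a, 6 for Tfap2b and 3 for Tfap2c. Each gene is read below from its brightest probe, on average over the 112 arrays, and the other probes, each tested on its own in a fit over all probes, are described where their calls differ from it. The 2 further members of the family were at background: Tfap2d was detected on 0 arrays and Tfap2e on 2, with detection meaning a detection p under 0.01 against the control beads of the same array.

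AP-2 proteins are transcription factors that bind GC-rich DNA as dimers through a helix-span-helix region near their C terminus. In the mouse embryo Tfap2a and Tfap2b act in surface ectoderm, the neural plate border and neural crest, the migratory cells that leave the edge of the neural plate. Tfap2c acts in trophoblast and in primordial germ cells, the founders of eggs and sperm, and is also expressed in embryonic stem cells of the early, naive kind. Epiblast stem cells (EpiSC) are cultured from the epiblast of the implanted embryo, whose cells form the body, and resemble a later state than embryonic stem cells (ESC).

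The EpiSC came from 18 lines of the R1-129 strain at passages 10 to 19, with 65 arrays. Their embryos of origin were at the cavity stage (embryonic days E5.5 to E6.0, 4 lines), prestreak (E6.0 to E6.5, 3 lines), late midstreak (E6.75 to E7.5, 6 lines), early bud (E7.5 to E8.0, 2 lines) and late bud (E7.75 to E8.25, 3 lines). Of the lines, CAV2, CAV3, LMS2 and LB1 also had a subline, marked with an asterisk, that was thawed on another occasion. The compared cells were 1 R1-129 ESC line (3 cultures, passage 22), 3 lines of induced pluripotent stem cells (iPSC, 9 cultures, a C57BL6 by C3H hybrid), mouse embryonic fibroblasts (MEF, 2 arrays, ARC/s) and EpiSC9, a 129SvJ line from elsewhere (3 cultures, passage 24, and 1 array of RNA made by another laboratory, called EpiSC9_T). None of the labels gives a gene edit or a drug treatment. Single R1-129 epiblasts or ectoderms (17 arrays) were taken at those 5 stages, at the late streak (E7.0 to E7.5) and at the no bud stage (E7.25 to E7.75). They and 12 EpiSC cultures of 4 lines were measured after linear amplification of their RNA. EpiSC were lifted from a layer of fibroblasts, so fibroblast RNA can be present. Each of ESC, MEF and EpiSC9 stands for a single line or preparation, class and strain cannot be told apart for iPSC, MEF and EpiSC9, and repeat cultures of a line measure the spread between cultures, not between embryos.

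The promoters of Tfap2a and Tfap2b are shown because the levels of these genes varied together across the EpiSC lines. The windows run from 250 bases before to 50 bases after a transcript start, from RefSeq on GRCm38.p6. Of the 3 windows matched by symbol, Tfap2b has 1 and Tfap2a has 2, at different starts. Capitals mark matches to any of 4 spellings of the AP-2 site (GCCNNNGGC, GCCNNNNGGC, GCCNNNGGG and GCCNNNNGGG, on both strands, overlapping matches joined).
Tfap2b, chr1:19211804-19212103, plus strand: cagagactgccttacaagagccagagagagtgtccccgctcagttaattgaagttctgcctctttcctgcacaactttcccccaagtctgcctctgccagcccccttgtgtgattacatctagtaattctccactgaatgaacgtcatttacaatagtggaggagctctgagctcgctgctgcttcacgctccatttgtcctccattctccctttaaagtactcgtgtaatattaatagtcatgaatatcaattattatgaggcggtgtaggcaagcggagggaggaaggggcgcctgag
Tfap2a, upstream start, chr13:40734871-40735170, minus strand: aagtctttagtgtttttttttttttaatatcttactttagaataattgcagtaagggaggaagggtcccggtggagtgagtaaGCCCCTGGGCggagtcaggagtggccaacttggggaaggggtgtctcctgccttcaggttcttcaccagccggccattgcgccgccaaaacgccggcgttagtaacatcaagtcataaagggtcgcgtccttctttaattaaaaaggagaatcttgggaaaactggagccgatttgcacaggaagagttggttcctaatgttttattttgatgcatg
Tfap2a, downstream start, chr13:40733746-40734045, minus strand: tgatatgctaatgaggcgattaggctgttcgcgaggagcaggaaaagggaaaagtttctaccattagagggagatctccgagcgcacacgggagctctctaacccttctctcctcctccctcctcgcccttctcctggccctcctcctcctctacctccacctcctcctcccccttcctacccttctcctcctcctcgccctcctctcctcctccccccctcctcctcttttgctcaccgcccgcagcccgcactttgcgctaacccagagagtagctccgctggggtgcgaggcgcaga
The upstream Tfap2a window held 1 stretch, GCCCCTGGGC, which matched 2 of the spellings. In the other windows these letters were not found. At least 1 of the spellings was present in 47.6% of all 32817 windows of the same length, so a match is common. No window is shown for Tfap2c.

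Some arrays went against their labels or stood apart, which bears on the results below. The 3 cultures of iPSC line 3 correlated with the ESC cultures at r = 0.995 to 0.996 over 11091 genes, as high as ESC cultures among themselves (0.996). The first cultures of iPSC lines 1 and 2 correlated with each other at 0.995 and with the later cultures of the same lines at 0.962 to 0.969. The iPSC results are therefore also given without line 3 or without those first cultures. The third early bud and the third late bud embryo are described in the labels as RNA of cultured cells, so the epiblast results are also given without them. Probes not above background split the arrays into 7 sets that no label names. ESC and iPSC formed 1 set, and each subline shared no set with its line, so set cannot be told apart from class or subline in those comparisons. Among the lines, CAV2, CAV3, LMS1 and LB1 lay wholly in the same set, EB1a and EB1b in another, and LMS2 and PS4 each in 1 set. Set and line cannot be fully told apart for these. All epiblasts and amplified EpiSC lay in the same set. Detection p was under 0.01 for 32.7% to 41.1% of probes on unamplified arrays and 21.3% to 32.7% on amplified ones.

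Tfap2c was far lower in EpiSC than in ESC, while Tfap2b was detected in nearly every EpiSC culture and in no ESC culture. On a normalized log2 intensity scale, Tfap2c read 11.73, 11.71 and 11.74 in the 3 ESC cultures. Over the 65 EpiSC arrays its lowest value was 5.56, its median 6.77 and its highest 10.02. The 18 EpiSC line means averaged 7.07, and all 18 lay below ESC. The log2 difference was -4.66 ± 0.91 (SE, as for every ± of a difference below), or 25.2-fold, with an adjusted p of 0.000589 in limma's moderated test (Benjamini-Hochberg over 15031 genes). All 3 Tfap2c probes were lower. In RNA of bulk cultures, fewer cells with a transcript and less of it per cell cannot be told apart. In this comparison 26.3% of genes passed in either direction.

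Tfap2b, which was not detected in ESC (4.88 to 5.04, detected on 0 of 3 arrays), was detected on 64 of 65 EpiSC arrays, with a lowest value of 5.32, a median of 7.16 and a highest of 10.98. All 18 line means were above ESC, by at least 3.68-fold on average. The lead probe missed the threshold (adjusted p = 0.0538, log2 difference 2.28 ± 0.86). It passed without the subline CAV2* (2.17, adjusted p = 0.0456), a choice made after seeing the data, and without the first ESC culture (adjusted p = 0.0499). Of the other 5 probes, probe 3151298 passed on its own (2.30, adjusted p = 0.0324). Tfap2a was detected on 48 of 65 EpiSC arrays (lowest 4.52, median 5.76, highest 7.08) and on 0 of 3 ESC arrays, and missed the threshold (adjusted p = 0.342).

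**Figure D1:**
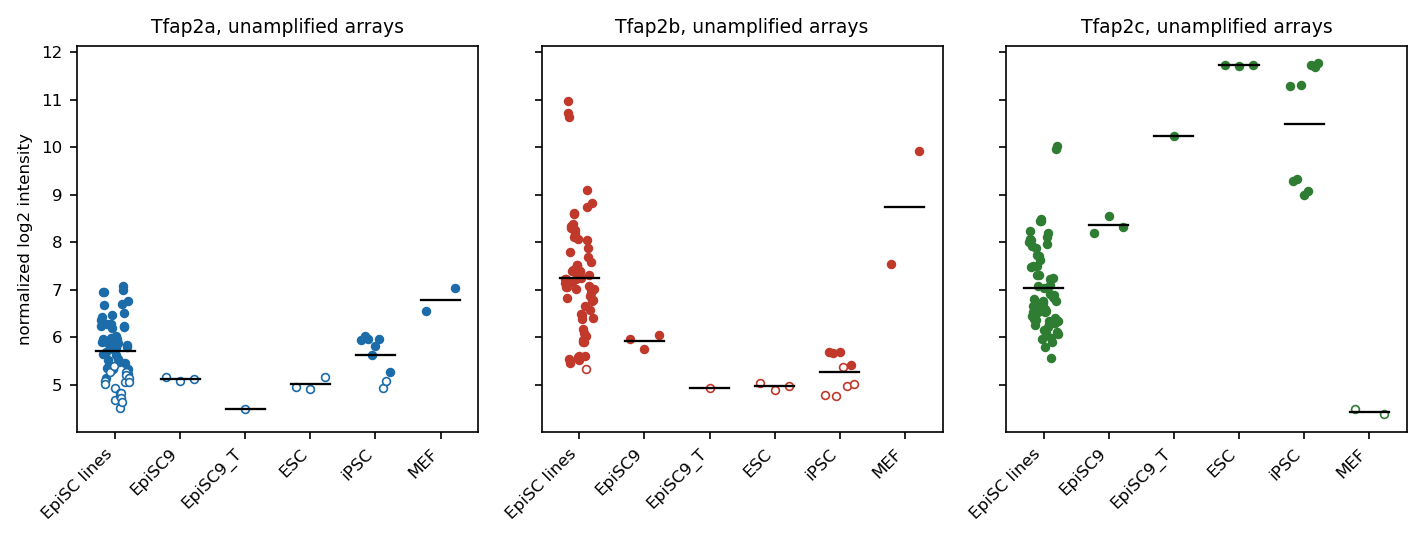
Normalized log2 intensity of the lead probe of Tfap2a, Tfap2b and Tfap2c (y axis) on each unamplified array, by class of cells (x axis). Filled points were detected (p under 0.01), open points were not, and black bars are means over arrays. Tfap2c was high in ESC (11.71 to 11.74) and iPSC (9.01 to 11.78), and MEF had no detected Tfap2c.

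Tfap2c was also lower in EpiSC than in iPSC, and Tfap2b was higher. Tfap2c read 11.28, 9.28 and 9.33 in iPSC line 1, 11.30, 9.01 and 9.09 in line 2, and 11.73, 11.70 and 11.78 in line 3. Its level was thus split within lines 1 and 2 in the way the whole arrays were. EpiSC lines were lower by 3.43 ± 0.55 on the log2 scale (10.8-fold, adjusted p = 2.99e-05), with 17 of 18 lines below all iPSC lines; the exception was PS4 at 10.00, above the lowest iPSC line mean of 9.80. Without iPSC line 3 the difference was -2.81 (adjusted p = 0.00144) and without the first cultures of lines 1 and 2 it was -2.96 (adjusted p = 0.000276). All 3 probes were lower. Tfap2b was higher in EpiSC by 1.98 ± 0.52 (adjusted p = 0.00416), with 18 of 18 lines above every iPSC line mean and detection on 4 of 9 iPSC arrays. It was 1.91 without iPSC line 3 (adjusted p = 0.0247) and 1.79 without the first cultures (adjusted p = 0.00827), and 4 of 6 probes were higher. The call was lost when all iPSC were taken as 1 unit (adjusted p = 0.152). Tfap2a, detected on 7 of 9 iPSC arrays, did not pass (0.10 ± 0.32, adjusted p = 0.829). Its sign turned without iPSC line 3 (-0.16), and it was 0.06 without the first cultures. Here 42.3% of genes passed, and the comparison shares the EpiSC lines with that against ESC. Between iPSC and ESC none of the 3 members passed (adjusted p = 0.949 for Tfap2a, 1.00 for Tfap2b and 0.913 for Tfap2c), and limma called 0% of genes (0 of 15031), with 1173 at an unadjusted p under 0.05. Without iPSC line 3, 1357 genes passed, but no member (Tfap2c -1.84, adjusted p = 0.361; Tfap2a 0.88, adjusted p = 0.523; Tfap2b 0.36, adjusted p = 0.948). Without the first cultures 0 genes passed, and the members read -1.70 (Tfap2c), 0.65 (Tfap2a) and 0.48 (Tfap2b), with adjusted p of at least 0.698.

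In MEF, Tfap2a and Tfap2b were detected and Tfap2c was not. Tfap2c was not detected in MEF (4.48 and 4.38) and was higher in EpiSC by at least 2.76-fold (adjusted p = 0.0224), a call that was lost with the authors' processed values (log2 difference 1.16, adjusted p = 0.156) and without background correction (1.15, adjusted p = 0.165). The other 2 Tfap2c probes did not pass. Tfap2b read 7.55 and 9.93 in the 2 MEF arrays and Tfap2a 6.55 and 7.05, so both genes were detected in fibroblasts. For both, 17 of 18 EpiSC lines were below the MEF mean, but neither difference passed (adjusted p = 0.166 and 0.108). Of the other Tfap2b probes, 1245527 was lower in EpiSC (-0.73, adjusted p = 0.0147). Without the first MEF array both passed, at log2 differences of -2.69 for Tfap2b and -1.32 for Tfap2a (adjusted p = 0.0138 and 0.0462). In this comparison 43.2% of genes passed.

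The 3 cultures of EpiSC9 lay within the range of the R1-129 lines for all 3 members. Its Tfap2c cultures read 8.20, 8.55 and 8.33, its Tfap2b cultures 5.97, 5.76 and 6.05, and Tfap2a was not detected (5.09 to 5.16). No member passed against the R1-129 lines (adjusted p = 0.701 for Tfap2a, 0.578 for Tfap2b and 0.612 for Tfap2c), where 1.67% of genes passed. The EpiSC9_T array, which was in no comparison, lay outside that range for all 3 members. Its Tfap2c of 10.23 was above every R1-129 EpiSC array, and its Tfap2b (4.93) and Tfap2a (4.50) were not detected and below the lowest of them.

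The lines differed from one another in each AP-2 factor by more than their cultures did. Tfap2b ranged from 5.5 in CAV3 to 10.78 in CAV2*, a 38.9-fold span. Tfap2c ranged from 5.82 in LMS4 to 10.00 in PS4, an 18.1-fold span, and Tfap2a from 4.70 in LMS2*, where it was not detected, to 6.93 in LMS4. The SD between cultures of a line was 0.25 for Tfap2a, 0.33 for Tfap2b and 0.28 for Tfap2c. The F test over the 22 lines and sublines gave adjusted p of 1.89e-16, 1.67e-24 and 3.91e-22 in that order. Since 92.9% of all genes passed this test, the result is not particular to the AP-2 factors. Several lines lay wholly in 1 array set, so set and line cannot be fully told apart here.

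In the order of line means, most neighbours overlapped. Tfap2a was highest in LMS4 (6.71, 7.0 and 7.08) and CAV2* (6.97, 6.95 and 6.67), followed by CAV1, LMS5 and LB1 (means of 6.34, 6.33 and 6.32), and was not detected in any culture of LB2, LMS3 or LMS2*. Only the step from CAV2* to CAV1 was free of overlap, so 20 of 21 neighbours overlapped. Tfap2b had gaps below CAV2* and below EB1a, and 19 of 21 neighbours overlapped. After CAV2* came LMS4 (9.11, 8.74 and 8.05), EB1a (8.39, 8.60 and 8.62), EB1b (8.12, 8.20 and 8.26) and CAV3* (7.79, 8.34 and 8.31), and the lowest were LMS3, LB2 and CAV3 (means of 5.65, 5.57 and 5.5). Tfap2c had gaps below PS4, LB1 and EB1b, with 18 of 21 neighbours overlapping. PS4 (9.97 and 10.02) stood 1.53 above LB1 (8.46, 8.49 and 8.46), and CAV1, LMS2, CAV2, CAV4 and EB1b followed at means of 8.11 to 7.55. The other 15 lines and sublines lay between 7.08 and 5.82 without a gap. The 2 PS4 cultures were close for Tfap2c but apart for Tfap2a (6.77 and 5.34) and Tfap2b (8.82 and 6.76).

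**Figure D2:**
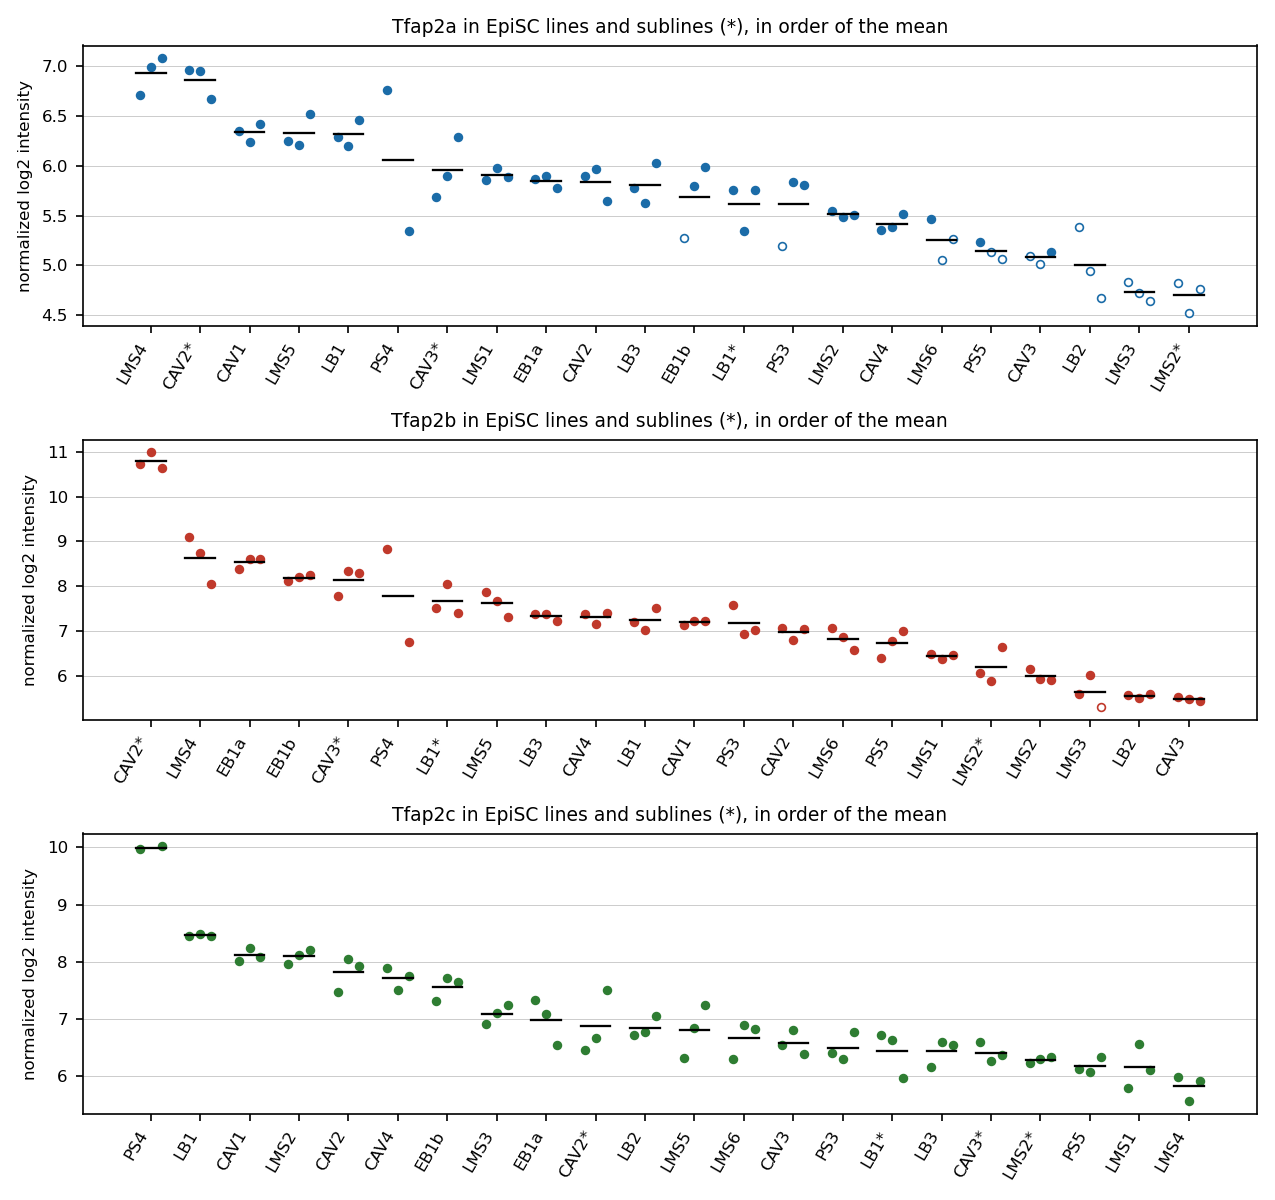
Normalized log2 intensity (y axis) of each AP-2 factor in every culture of the 22 EpiSC lines and sublines (x axis, in order of the mean). Filled points were detected, open points were not, and bars are means of cultures. CAV2* stands apart for Tfap2b (mean 10.78) and PS4 for Tfap2c (mean 10.00).

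The stage of the embryo of origin did not separate the lines. Mean Tfap2a over lines lay between 5.59 and 5.91 at the 5 stages, with line SDs up to 0.83. Mean Tfap2b was highest in the 2 early bud lines (8.36 ± 0.24, SD) and lowest in the 3 late bud lines (6.79 ± 1.06, SD), and mean Tfap2c was between 6.62 and 7.55. The early bud lines EB1a and EB1b share a number in their names. The F test gave adjusted p of 0.983 for Tfap2a, 0.810 for Tfap2b and 0.908 for Tfap2c, and 0.0139% of genes (2 of 14339) passed it.

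Sublines from the same embryo differed from their lines in several AP-2 factors, and in different ones. In CAV2, Tfap2b read 7.07, 6.82 and 7.05 in the line and 10.73, 10.98 and 10.64 in the subline. The rise was 3.80 ± 0.26 on the log2 scale, or 13.9-fold (adjusted p = 3.02e-17), and 6 of 6 probes rose. In CAV3, Tfap2b read 5.54, 5.49 and 5.46 in the line and 7.79, 8.34 and 8.31 in the subline, a rise of 2.65 ± 0.26 or 6.27-fold (adjusted p = 2.46e-12), with 4 of 6 probes rising. Neither pair of groups overlapped. Tfap2b did not pass in LMS2 (6.17, 5.95 and 5.91 against 6.08, 5.90 and 6.66, adjusted p = 0.553). There the probe 3151298 was lower in the subline (-0.84, adjusted p = 0.00901), while the lead probe read higher. Nor did Tfap2b pass in LB1 (7.22, 7.03 and 7.52 against 7.52, 8.06 and 7.42, adjusted p = 0.223).

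Tfap2c fell in the sublines of LMS2 and LB1. In LMS2 it read 7.96, 8.11 and 8.20 in the line and 6.22, 6.29 and 6.34 in the subline, a decrease of 3.50-fold (-1.81 ± 0.22, adjusted p = 2.25e-09). LB1 went from 8.46, 8.49 and 8.46 in the line to 6.72, 6.62 and 5.96 in the subline, a decrease of 4.09-fold (-2.03 ± 0.22, adjusted p = 1.51e-10). In both, 2 of 3 probes fell, and probe 1231632, which was detected on 6 EpiSC arrays, did not pass. Tfap2c was also lower in CAV2* (6.45, 6.66 and 7.51 against 7.47, 8.04 and 7.92 in CAV2, -0.94 ± 0.22, adjusted p = 0.00037), though these cultures overlapped, and 2 of 3 probes fell. The lead probe did not pass in CAV3 (adjusted p = 0.55). Probe 2783226 did, with 5.55 to 5.70 in 3 detected CAV3 cultures and no detection in CAV3* (4.95 to 5.07, adjusted p = 0.00375).

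Tfap2a moved in all 4 pairs, up in CAV2* and CAV3* and down in LMS2* and LB1*. It rose from a mean of 5.84 to 6.86 in CAV2* (adjusted p = 3.49e-05) and from 5.08 to 5.96 in CAV3* (adjusted p = 0.000294), where 1 of 3 line cultures had detected it. It fell from 6.32 to 5.62 in LB1* (adjusted p = 0.00517), a call lost without the second LB1* culture (adjusted p = 0.0507). In LMS2* it was no longer detected (4.82, 4.52 and 4.76), which makes it lower than in LMS2 (5.54, 5.48 and 5.51) by at least 1.17-fold (adjusted p = 0.00102). The other Tfap2a probe tested, 2913031, did not pass in any of the 4 pairs (adjusted p at least 0.0697). The effects of subline differed between the 4 pairs for every member (adjusted p = 1.13e-08 for Tfap2a, 7.51e-13 for Tfap2b and 2.35e-06 for Tfap2c), a test that 54.5% of genes passed. For comparison, 44.2% of genes passed between CAV2* and CAV2, 44.9% in CAV3, 39.5% in LMS2 and 33.7% in LB1. Passages differed little: 16 and 19 in CAV2 and CAV2*, 14 and 11 in CAV3, 14 and 13 in LMS2, and 15 and 16 in LB1.

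**Figure D3:**
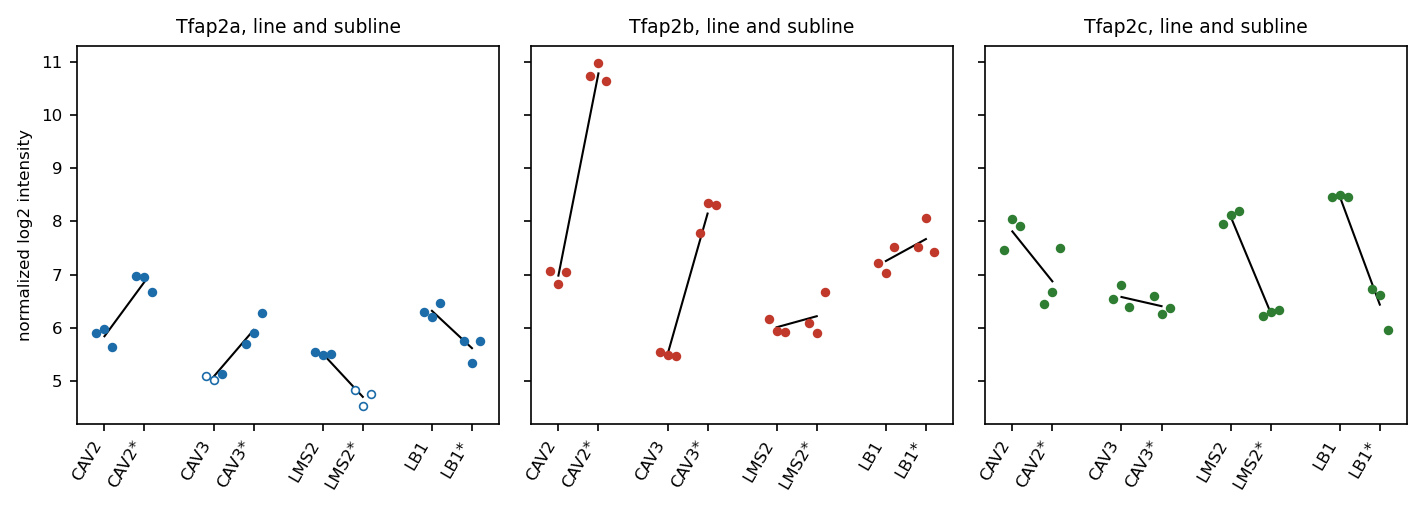
Normalized log2 intensity (y axis) of each AP-2 factor in the cultures of 4 EpiSC lines and of their sublines (x axis, asterisk). Filled points were detected, open points were not, and black lines join the means. Tfap2b rises in CAV2* and CAV3*, and Tfap2c falls in LMS2* and LB1*.

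Fibroblast markers were measured beside these values because MEF carried Tfap2a and Tfap2b. The log2 of the summed intensity of 12 fibroblast genes was 16.04 to 16.05 in MEF, 12.49 to 12.64 in ESC and 12.66 to 14.89 on EpiSC arrays. It was 13.87 in CAV2* and 13.97 in CAV2. Tfap2b read 10.64 to 10.98 in CAV2* and 7.55 and 9.93 in MEF. In CAV2*, 5 of 11 tested fibroblast genes passed, 1 higher and 4 lower. In CAV3* 6 of 11 rose, among them the matrix proteoglycan genes Dcn (1.97) and Lum (1.96), and the sum went from 12.83 to 13.88. LMS2* had the highest sum (14.55) of the 22 lines and sublines, with 9 of 11 genes higher, and low Tfap2a and Tfap2b. In LB1* 1 of 11 fell. Across the 22 lines and sublines the sum had r = 0.47 with Tfap2a, 0.35 with Tfap2b and -0.11 with Tfap2c, given as a description. Single genes of the list ranged from -0.29 (Postn) to 0.55 (Dcn) with Tfap2a, and from -0.15 (Pdgfrb) to 0.54 (Dcn) with Tfap2b. The part of fibroblast RNA in the differences between lines was not tested.

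Tfap2a and Tfap2b varied together over the 18 lines and Tfap2c varied apart from them. Pearson's r between Tfap2a and Tfap2b was 0.78 (permutation p = 0.00013, adjusted over 3 pairs 0.00039) and Spearman's rho 0.79 (permutation p = 0.0002, adjusted 0.0006). Without LMS4 and LMS3, the lines farthest from the median of Tfap2a, r was 0.68. Tfap2a and Tfap2c had r = 0.08 and rho = 0.08 (permutation p = 0.755 and 0.749), and r = 0.36 without the same lines. Tfap2b and Tfap2c had r = 0.16 and rho = 0.22 (permutation p = 0.535 and 0.376), and r = 0.13 without LB2 and CAV2. Adjusted values for r were 0.755 for both pairs. No r within array sets was computed, since lines are spread unevenly over the sets. In the plot of members against each other CAV2* and LMS4 are high for both Tfap2a and Tfap2b.

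**Figure D4:**
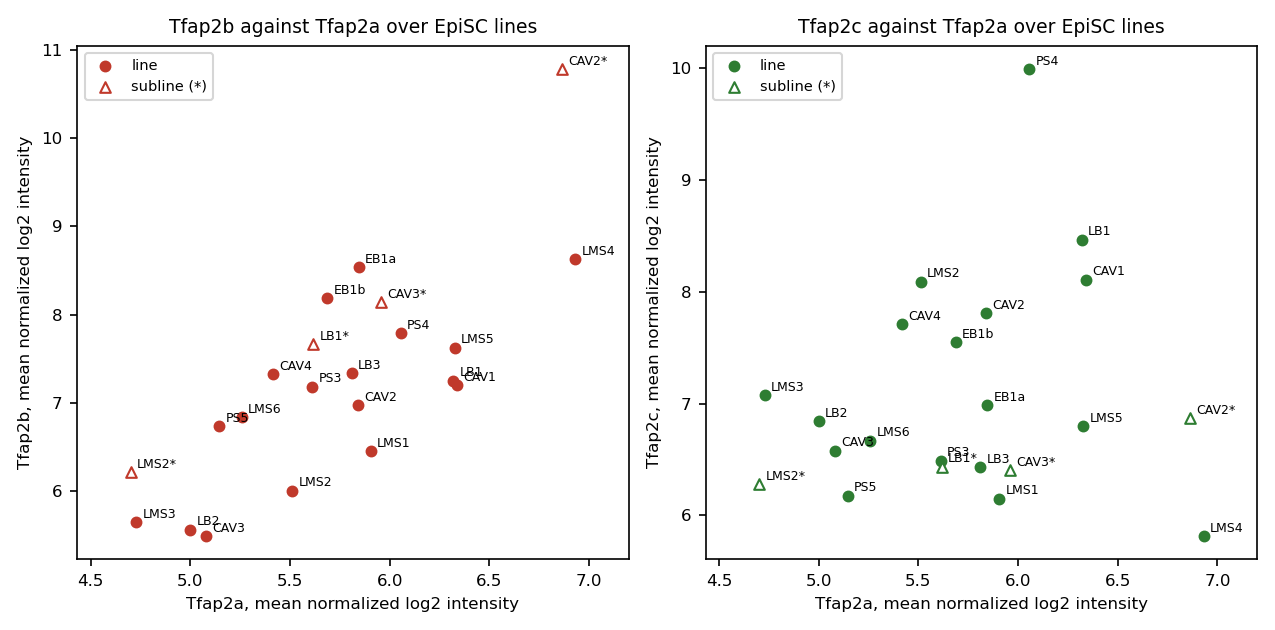
Mean normalized log2 intensity of Tfap2b (left, y axis) and Tfap2c (right, y axis) against that of Tfap2a (x axis) in 22 EpiSC lines (circles) and sublines (triangles). Tfap2b rises with Tfap2a (r = 0.78 over the 18 lines), whereas Tfap2c does not (r = 0.08).

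The AP-2 probes read differently on linearly amplified and unamplified arrays, which limits any comparison between the 2 kinds. In 12 amplified against 12 unamplified cultures of the same 4 lines, Tfap2b read 1.66 ± 0.23 higher and Tfap2c 1.94 ± 0.20 higher, while Tfap2a was detected on 4 of 12 unamplified arrays and 0 of 12 amplified ones and read lower there (adjusted p = 5.47e-07, 4.39e-09 and 3.9e-05). Of all genes, 78.7% passed. The shift depended on the line: for Tfap2b it was 1.97 in CAV2, -0.05 in PS5, 2.20 in LMS3 and 2.54 in LB2, and for Tfap2c 2.31, 1.85, 2.97 and 0.63 (adjusted p of the difference between lines 9.86e-09 and 6.87e-08, and 0.000329 for Tfap2a, where 80.3% of genes passed). Of 3 Tfap2b probes tested, 2 read higher on amplified arrays and 1 lower. Of 2 Tfap2c probes, 1 read higher and 1 lower. The lower ones were Tfap2c probe 2783226, detected on 0 of 12 amplified arrays (means of lines 4.48 to 4.59), and Tfap2b probe 3151298, detected on 1 (4.63 to 5.43). Their adjusted p in limma's test was 1.04e-07 and 0.00013. Order among lines was not kept, since LB2 had the lowest Tfap2b of these lines before amplification (5.57) and the second highest after it (8.11). For Tfap2b in LMS3, raw intensities were 160 to 173 amplified and 143 to 158 unamplified, before background correction and normalization. Unamplified CAV2 lay in another array set than amplified CAV2. The parts of amplification, array set and normalization in these shifts were not tested. The epiblasts were therefore compared only with amplified EpiSC.

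In the embryo itself, Tfap2a and Tfap2c rose as the epiblast passed through gastrulation and Tfap2b was not detected on any of the 17 arrays. Tfap2c read 7.81 and 7.10 at the cavity stage and 7.37 and 7.28 at the prestreak stage. It then read 10.37, 9.72 and 9.61 at the late midstreak and 9.96, 9.27 and 9.98 at the late streak stage. The no bud embryo had 10.60, the early bud embryos 11.25, 10.64 and 11.73 and the late bud embryos 12.23, 11.71 and 11.54. Joined into early (4 embryos), streak (6) and bud (7) periods, the groups did not overlap. The streak period was 5.38-fold above the early one (2.43 ± 0.42, adjusted p = 0.000733) and the bud period 2.97-fold above the streak one (1.57 ± 0.36, adjusted p = 0.00269). From early to bud the rise was 16.0-fold (4.0 ± 0.41, adjusted p = 2.49e-07). The second Tfap2c probe tested in embryos, 1231632, rose from early to bud (2.07, adjusted p = 5.73e-05) but not from early to streak (0.22, adjusted p = 0.819). Without the 2 bud embryos described as cultured cells, Tfap2c was 3.90 above early (adjusted p = 6.04e-06) and 1.47 above streak embryos (adjusted p = 0.019).

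Tfap2a was not detected in the 4 early embryos (4.44 to 4.68). It was detected in 3 of 6 streak embryos. Values were 8.04, 7.04 and 4.98 at the late midstreak and 6.33, 6.57 and 7.19 at the late streak stage. Of these, 4.98, 6.33 and 6.57 were not detected, so undetected values reached 6.57 on these arrays. All 7 bud embryos carried it, with 7.11 at no bud, 9.02, 8.43 and 9.32 at early bud and 9.03, 8.96 and 8.68 at late bud. Bud embryos were above early ones by at least 4.47-fold (adjusted p = 3.25e-07) and streak embryos by at least 1.15-fold (adjusted p = 0.00381). Bud exceeded streak by 1.96 ± 0.38 (adjusted p = 0.00061), with some overlap. Without the 2 embryos in doubt the bud period was still above the streak one (1.82, adjusted p = 0.00572). Tfap2a probe 2913031 rose from early to bud too (2.09, adjusted p = 0.000573) but not from early to streak (0.08, adjusted p = 0.961). Over all genes 6.29% passed between streak and early, 33.9% between bud and early and 31.5% between bud and streak. Between streak and early, 756 genes passed, and 431 without the second prestreak embryo. Between bud and streak 3781 passed, and 2105 without the 2 embryos in doubt. Tfap2b, by contrast, read 4.37 to 5.92 on all 17 arrays, at background, and did not pass in any of these tests (adjusted p = 0.949, 0.442 and 0.502).

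Amplified EpiSC differed from each period of the epiblast in at least 1 member. Tfap2b was detected on 12 of 12 amplified EpiSC arrays (lowest 6.57, median 7.92, highest 9.08) and exceeded early, streak and bud epiblasts by at least 2.65-fold, 3.00-fold and 1.94-fold (adjusted p = 2.03e-06, 1.03e-06 and 2.89e-06). Tfap2a was not detected in them (4.36 to 4.80) and was lower than in bud epiblasts by at least 6.01-fold (adjusted p = 1.24e-07) and than in streak epiblasts by at least 1.54-fold (adjusted p = 0.000636). With early epiblasts, where both were at background, it did not pass (adjusted p = 0.958). Tfap2c of amplified EpiSC split by line, with means of 10.12 in CAV2, 10.05 in LMS3, 8.03 in PS5 and 7.47 in LB2. Its mean was below bud epiblasts by 2.47 ± 0.41 (adjusted p = 6.6e-05), above early ones by 1.53 ± 0.46 (adjusted p = 0.0121) and not separable from streak ones (-0.90 ± 0.42, adjusted p = 0.107). These last results depend on the lines: without CAV2 they were 1.12 (adjusted p = 0.066) and -1.30 (adjusted p = 0.0285), and without LMS3 1.15 (adjusted p = 0.0586) and -1.28 (adjusted p = 0.0309). Tfap2c probe 1231632 did not pass against early epiblasts (-0.05, adjusted p = 0.935), nor Tfap2a probe 2913031 against streak ones (-0.41, adjusted p = 0.511). Of all genes 36.7%, 31.8% and 44.2% passed against early, streak and bud epiblasts. These comparisons share the amplified EpiSC. Unamplified cultures of these lines had Tfap2a detected in 3 of CAV2, 1 of PS5, 0 of LMS3 and 0 of LB2. The part of amplification in this difference was not tested.

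**Figure D5:**
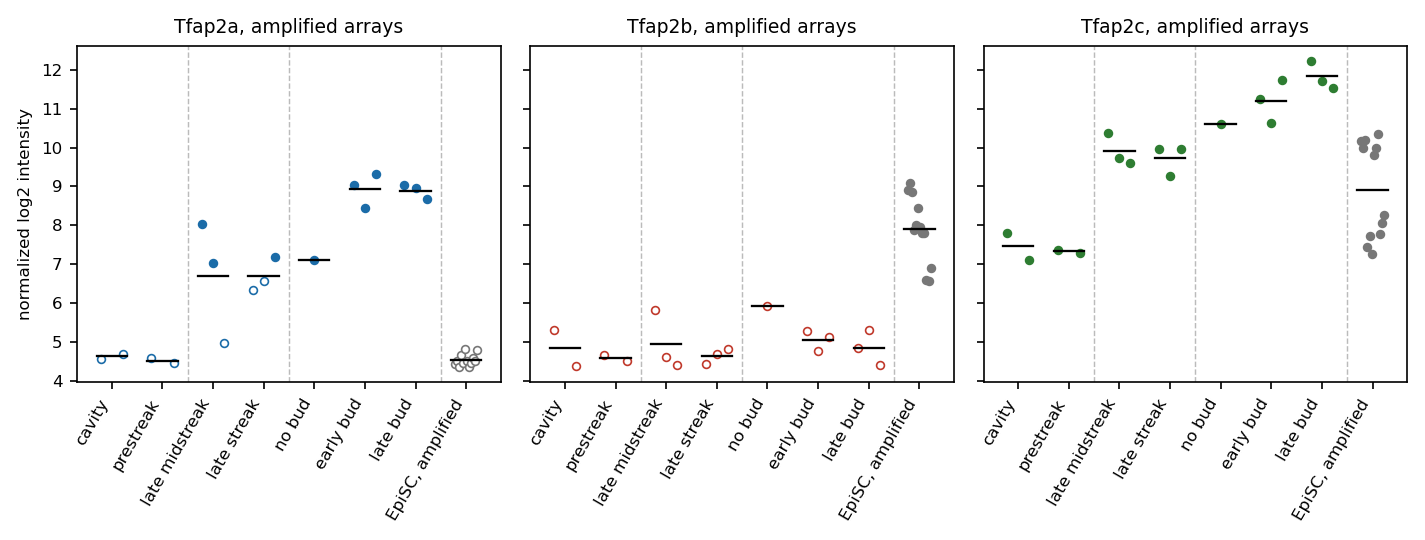
Normalized log2 intensity (y axis) of each AP-2 factor in single epiblasts by stage and in 12 amplified EpiSC cultures (x axis, gray). Filled points were detected, open points were not, bars are means, and dashed lines separate the early, streak and bud periods. Tfap2a and Tfap2c climb with stage (Tfap2c from 7.10 to 12.23), Tfap2b stays undetected in epiblasts and is present in EpiSC.

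Extraembryonic markers were read in the epiblasts, because Tfap2c is also a gene of the trophoblast and tissue can be carried along in dissection. No trophoblast sample was measured, so whether the undetected probes can read their genes on amplified arrays is not known. Elf5, Hand1, Ascl2, Plet1, Rhox6 and Rhox9 were detected on 0 of 17 epiblast arrays. Elf5, Hand1 and Plet1 were not detected in ESC or iPSC either. By contrast, Eomes, Bmp4 and Ets2 were detected in 4 of 4 early, 6 of 6 streak and 7 of 7 bud embryos. Krt7 was detected in 4 of 4, 6 of 6 and 6 of 7 embryos. Tead4 gave 1 of 4, 2 of 6 and 4 of 7. Gata3 gave 0 of 4, 1 of 6 and 1 of 7. The caudal factor Cdx2 was detected in 1 of 4 early, 6 of 6 streak and 7 of 7 bud embryos, and the zinc finger factor Gata2 in 1 of 4, 5 of 6 and 7 of 7. Over all 14 genes of the list, 4 to 5 were detected in early, 6 to 7 in streak and 6 to 8 in bud embryos, and the log2 of their summed intensity was 11.53 to 11.79, 11.69 to 12.29 and 11.69 to 12.56. The part of extraembryonic cells in the rise of Tfap2c was not tested.

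Genes tied to AP-2 function were read beside the factors, as lists of textbook members. Their counts are read against the share of all genes that passed, which was 26.3% between EpiSC and ESC, 42.3% between EpiSC and iPSC, 33.9% between bud and early epiblasts and 6.29% between streak and early ones. Of 8 cofactors and inhibitors, 3 passed between EpiSC and ESC (37.5%), 2 higher and 1 lower. They included Kctd1, a BTB-domain inhibitor of AP-2 (1.22 ± 0.42), and the acetyltransferase gene Crebbp (-0.62 ± 0.17). The list's median log2 difference was 0.03, against 0.02 for all genes. Against iPSC, 3 of 8 passed (37.5%), all higher, among them Kctd1 (1.15) and its relative Kctd15 (0.97). In epiblasts, 2 of 6 tested passed between bud and early (33.3%), both higher. These shares are near those of all genes. Kctd1 went from undetected in 4 of 4 early embryos to detected in 7 of 7 bud embryos, at least 6.66-fold, and Cited2, an AP-2 coactivator, rose by 1.97 ± 0.30.

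Of 8 tested genes reported elsewhere as AP-2 targets, 4 passed between EpiSC and ESC (50%, against 26.3% of all genes). Hoxa2, the hindbrain and second-arch Hox gene, was at least 10.5-fold higher, with no detection in ESC. The gelatinase gene Mmp2 (1.90 ± 0.54) and the receptor gene Erbb2 (1.03 ± 0.34) were higher, and Cdh1, encoding E-cadherin, was lower (-2.46 ± 0.57). Against iPSC 2 were higher and 2 lower (50%, against 42.3%), with Kit, the stem cell factor receptor, lower by 1.32 ± 0.44. From early to bud epiblasts 2 of 7 rose (28.6%, below the 33.9% of all genes), Kit by at least 2.26-fold and Erbb2 by 1.17 ± 0.37.

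Genes of tissues in which AP-2 factors act were counted beside the 26.3% of all genes that passed against ESC. Of 8 tested neural plate border and neural crest genes, 3 were higher in EpiSC than in ESC and none lower: the crest factor Sox9 (4.29 ± 0.68), the endothelin receptor Ednrb (4.06 ± 1.20) and the zinc finger factor Zic1, at least 5.15-fold. That is 37.5% of the list, whose median was 0.70. Of 9 tested surface ectoderm genes 3 were lower (33.3%), namely Grhl2 (-3.84 ± 0.71), the splicing regulator Esrp1 (-3.54 ± 0.94) and Grhl3 (-2.16 ± 0.26). Among 12 extraembryonic ectoderm and trophoblast genes 6 were lower (50%), among them the homeobox gene Rhox9, which read 10.62 in ESC and was detected on 1 of 65 EpiSC arrays. Of 8 primordial germ cell genes 4 were lower (50%), with Dppa3, which guards maternal methylation, lower by at least 46.3-fold. Detection on 3 arrays of the fit was enough for a test. Genes detected almost only in ESC or iPSC, such as Rhox9 and Dppa3, could thus only come out lower in EpiSC. Likewise, genes not detected in ESC, such as Hoxa2 and Zic1, could only come out higher than in ESC. With detection required on 0.25 of arrays, fewer trophoblast genes were lower. Naive pluripotency genes gave 8 of 11 lower (72.7%), among them the orphan receptor gene Esrrb (-7.63 ± 0.36), and these lists share no member with the AP-2 factors. Against iPSC, where 42.3% of all genes passed, the counts passing were 3 of 8 border genes (higher), 3 of 9 surface ectoderm genes (lower), 6 of 12 trophoblast genes (lower), 8 of 8 germ cell genes (lower) and 11 of 11 naive genes (lower). The fibroblast list was higher than in ESC in 4 of 11 genes (36.4%) and than in iPSC in 1 of 11 (9.09%).

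The same lists were counted in the epiblast, where 33.9% of all genes passed from early to bud. Of 8 border genes 2 rose (25%), Sox9 by at least 21.4-fold and Ednrb by at least 2.38-fold. Of 6 surface ectoderm genes, Dlx3, a homeobox gene of the non-neural ectoderm, rose by at least 2.95-fold, Grhl2 rose by 0.78 ± 0.26 and the keratin gene Krt18 fell by 0.61. Neuroectoderm genes fell in 2 of 4, Sox2 by at least 2.26-fold. Of 7 trophoblast genes 2 rose (28.6%), Cdx2 (5.33 ± 0.54) and Gata2 (2.88 ± 0.50), and of 7 BMP genes 2 rose (28.6%), the target Id2 (2.39 ± 0.40) and the antagonist Chrd (1.81 ± 0.63). The border, trophoblast and BMP shares are thus below that of all genes. Without the 2 embryos in doubt 1 surface ectoderm and 1 BMP gene rose. Already from early to streak (6.29% of all genes), Sox9 rose by at least 6.7-fold, Kctd1 by at least 1.90-fold and Cdx2 by 4.06 ± 0.56.

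BMP signalling is known to set the neural plate border, so its genes were counted in the sublines. Of 9 tested genes 7 passed in CAV2* (1 higher, 6 lower), with Bmp4 lower by 1.95 ± 0.21 and Bmp7 lower by 1.44 ± 0.16. LB1* also had 1 higher and 6 lower, with the antagonist Nog lower by 1.93 ± 0.19. LMS2* had 1 higher and 3 lower, and CAV3* 1 higher and 1 lower. Border genes passed in 6 of 8 in CAV2*, 1 higher (Zic1, 1.99 ± 0.31) and 5 lower, of which the crest factor Twist1 (-1.22 ± 0.21) was the lowest. In CAV3* 4 of 8 were higher and none lower: Ednrb (2.62 ± 0.24), Zic1 (2.20 ± 0.31), Sox9 (1.28 ± 0.12) and Twist1 (0.71 ± 0.21). LMS2* had 2 higher and 3 lower, with Zic1 lower by 1.23 ± 0.31, and LB1* had 4 lower. Surface ectoderm genes were lower in 6 of 9 in CAV2*, 5 of 9 in CAV3* and 2 of 9 in LMS2*, and LB1* had 1 higher and 3 lower. Of all genes 44.2% passed in CAV2*, 44.9% in CAV3*, 39.5% in LMS2* and 33.7% in LB1*.

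The genes most like each factor across the 22 EpiSC lines and sublines were found by Pearson's r of group means over 11466 detected genes. These are descriptions over cultures that share array sets, with no test. For Tfap2b they were Zic1 (0.89), the basic helix-loop-helix gene Tcf12 (0.88), the Iroquois gene Irx2 (0.87), LOC547380 (0.86) and the Wnt inhibitor gene Sfrp2 (0.85), and the most opposed were Prex2 (-0.90) and Tmed8 (-0.88). For Tfap2a they were the growth-arrest gene Gadd45g (0.87), Gnptg (0.84), the adaptor subunit gene Ap2s1 (0.83), the zinc finger gene Insm1 (0.83) and Nrn1 (0.82), opposed to LOC100046393 (-0.85) and Enpp3 (-0.82). For Tfap2c they included Gdpd3 (0.76), Bag5 (0.67), Catsperd (0.66) and the Wnt feedback gene Axin2 (0.63), opposed to Csrnp2 (-0.74) and Daglb (-0.71).

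Over the 17 epiblasts (8699 genes), which differ in stage, Tfap2c ran with the growth factor gene Pdgfa (0.99), Irx5 (0.98), the collagen gene Col4a5 (0.97), Irx2 (0.97) and Meis2 (0.97), opposed to Cbr3 (-0.98) and Tmem54 (-0.95). Tfap2a ran with the hyaluronan receptor gene Cd44 (0.95), the receptor gene Fgfr2 (0.95), Rgma (0.95), Kctd1 (0.95) and Foxi2 (0.95), and was opposed to Nodal (-0.92) and Slc7a7 (-0.92). Irx2 was thus among the 5 genes nearest to Tfap2b in EpiSC and to Tfap2c in epiblasts. Tfap2b was not detected in epiblasts, and its nearest genes there are not given.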

How the data were processed

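Illumina bead arrays of 112 mouse samples were scanned and summarised with BeadStudio, per the submitters' processing notes (version not given). The array type and genome build are not given in the sources used here. The deposited values are raw bead intensity with a detection p-value for each of 45281 probes and, in another table, the authors' processed log2 intensity for 31646 probes, whose column medians are 6.87 to 6.94. In the latter table the 3 LB2 columns matched other LB2 cultures, which leaves the group mean as it is.

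From the deposited intensities, background was corrected by the normexp method from detection p-values, 16 was added and arrays were quantile normalized (neqc steps, limma 3.58.1, R 4.3.3). The lowest values therefore sit near 4 on the log2 scale. The 30774 names were updated with RefSeq (15991 matched a symbol, 5826 a synonym, 8957 were kept) to 28888 genes, of which 9740 had several probes. The brightest probe on average stood for a gene. Genes were tested with lmFit and eBayes (trend) if detected at p under 0.01 on at least 3 arrays of the fit, and p-values were adjusted by Benjamini-Hochberg over every gene in the fit, with a threshold of 0.05. Classes were compared over line means, a subline averaged with its line. Lines, sublines and amplified cultures were compared over cultures. ESC, MEF and EpiSC9 are 1 unit each, assumed to vary like the other groups. Groups in which a probe was not detected on any array give an "at least" fold, from the mean of the detected group over the higher of the probe's own value and the lowest detected signal on each array of the other. The number of arrays limits precision.

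Culture numbers did not pair samples (mean correlation of deviations 0.030 for the same number and -0.015 for other numbers, 195 of 672 pairs over 0.1, and 0 of 12 over 0.1 for amplified cultures), so no block was used in the main fit. On simulated shifts of 1 on the log2 scale, 23.9% of genes were recovered between EpiSC and ESC, 73.1% between EpiSC and iPSC, 95.5% between CAV2* and CAV2 and 49.3% between bud and early epiblasts. At a shift of 2 these were 80.3%, 93.9%, 100% and 86.4%.

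The members and gene lists were chosen with earlier results of these data known. Named genes are the members and each of their probes, Tfap2d and Tfap2e, up to 4 members of each list with the largest change among those that passed, and the 5 most and 2 least correlated genes, over genes detected on a majority of the arrays. The lists are AP-2 cofactors, reported targets, neural plate border, surface ectoderm, neuroectoderm, trophoblast, germ cell, naive pluripotency, BMP, fibroblast, visceral endoderm and primitive streak genes. Alternatives were the authors' processed values, no background correction, median scaling, other detection filters, each probe alone, replicate blocks, an array-set block and leaving out samples. Some genes that the naming rule selects are not reported here.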

Additional observations from a re-analysis of the deposited data

Results flagged for a closer look

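The effects of subline differed between the 4 line pairs for every member by the interaction term of limma's fit (adjusted p = 1.13e-08 for Tfap2a, 7.51e-13 for Tfap2b and 2.35e-06 for Tfap2c). The differences between amplified and unamplified cultures varied between the 4 lines by the interaction term of limma's fit (adjusted p = 0.000329 for Tfap2a, 9.86e-09 for Tfap2b and 6.87e-08 for Tfap2c).

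The first late midstreak embryo had a Tfap2b value of 5.82, apart from the other 5 streak embryos (4.41 to 4.82), although it was not detected. The no bud embryo had a Tfap2a value of 7.11, apart from the other 6 bud embryos (8.43 to 9.32). These were 2 of 18 gap tests past Dixon's critical value, which chance passes in about 1 group in 20.

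The EpiSC9_T array, which was in no comparison, had a detected Tfap2c value of 10.23. That is above the 3 cultures of EpiSC9 (8.20 to 8.55) and every R1-129 EpiSC array. It had no detected Tfap2a (4.50) or Tfap2b (4.93).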

How the results depend on the processing

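Of 646 differences recomputed under alternatives for the members, 629 kept their direction and side of the threshold, 5 reversed, 6 newly passed and 6 were lost. All 102 F tests stayed on their side of the threshold. The 15 recomputed correlations lay within the confidence interval of the main r, and no p-value was recomputed for them. The reversed differences were small in every case: Tfap2c in CAV3* with median scaling (0.0021), Tfap2a against iPSC without iPSC line 3 (-0.16, range when each line is left out -0.16 to 0.27), Tfap2b in LMS2* without culture 3 of it (range -0.016 to 0.37), Tfap2b between streak and early epiblasts without the second cavity embryo (-0.026 to 0.29), and Tfap2a between amplified EpiSC and early epiblasts (-0.078 to 0.00082). For calls that changed, Tfap2c against MEF was lost with the authors' processed values (1.16) and without background correction (1.15). Tfap2b against ESC passed without CAV2* (2.17), and its range over ESC cultures left out was 2.24 to 2.31. Tfap2b against iPSC was lost with iPSC as 1 unit (1.98). Leaving out a MEF array gave -1.32 to -0.82 for Tfap2a and -2.69 to -0.31 for Tfap2b, and leaving out a culture of LB1 or LB1* gave -0.77 to -0.56 for Tfap2a. Leaving out a line or an early embryo gave 1.12 to 2.01 for Tfap2c of amplified EpiSC against early epiblasts, and -1.30 to -0.42 against streak epiblasts. The cause of these changes was not tested.

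Counts of genes moved more. Between EpiSC lines of different stage 2 genes passed, against 5 with the authors' values, 1 with median scaling, 25 with no filter, 1 with detection on 0.25 of arrays, 10 with sublines left out, 1 with EB1a and EB1b as 1 line, and 0 to 3 with each line left out. EpiSC9 had 251, against 153 with median scaling, 972 with no filter, 129 with detection on 0.25 of arrays, 162 with sublines left out, and 186 to 614 with a culture left out, the highest without the first. Between iPSC and ESC 0 passed, against 6 with no filter, 339 with iPSC as 1 unit, and 0 to 1357 with a line or culture left out, the highest without iPSC line 3. Against iPSC 6363 passed, and 2483 with iPSC as 1 unit. Streak against early epiblasts had 756, against 1171 with median scaling and 431 to 636 with an early embryo left out, the lowest without the second prestreak embryo. Bud against streak had 3781, against 2105 without the 2 embryos that the labels describe as cultured cells. Over the gene lists and counts of genes, 134 of 1048 recomputed counts differed by over 1.5 times. Requiring detection on 0.25 of arrays leaves genes out, so trophoblast genes lower than in ESC went from 6 to 2.

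Culture numbers did not pair samples. With culture number as a replicate block the values were the same and no call changed, for example Tfap2b in CAV2* at 3.80 (adjusted p = 3.91e-17), Tfap2a in CAV2* at 1.02 (adjusted p = 3.16e-05) and Tfap2c in LMS2* at -1.81 (adjusted p = 1.17e-09). In amplified cultures, the block gave adjusted p of 0.000908, 7.5e-05 and 3.68e-06 for Tfap2a, Tfap2b and Tfap2c. The array set as a random block (consensus correlation 0.150) kept every subline call. Since each subline shared no set with its line, that block cannot separate set from subline. That block was not run for epiblasts, which lie in 1 set. Probes near background, above all those of Tfap2a, limit what can be seen.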

Other observations

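Other gene groups moved in the sublines beside the AP-2 factors. Klf2, a Kruppel-like factor of naive pluripotency, was lower in all 4 sublines, by -3.58 ± 0.19 in CAV2*, -2.47 ± 0.19 in CAV3*, -2.12 ± 0.19 in LMS2* and -2.75 ± 0.19 in LB1* (limma adjusted p at most 5.67e-13). Among 9 tested naive genes, 3 were lower in CAV2* (33.3%, against 44.2% of all genes) and 5 in LB1* (55.6%, against 33.7%). CAV3* had 1 higher and 4 lower (55.6%, against 44.9%), and LMS2* 1 higher and 5 lower (66.7%, against 39.5%). Each subline shared no array set with its line, so set and subline cannot be told apart here. Of 7 tested primitive streak and mesoderm genes, 6 fell in CAV3* (85.7%, against 44.9% of all genes that passed there) and 5 in LMS2* (71.4%, against 39.5%), where the homeobox gene Lhx1 (-4.03 ± 0.27) and the T-box gene T (-3.02 ± 0.30) were lower. In CAV2* 2 of 7 rose (28.6%, against 44.2%), with the growth factor gene Fgf8 at 1.51 ± 0.29, and in LB1* 1 fell (14.3%, against 33.7%), the T-box gene Eomes (-1.37 ± 0.33). Of 7 visceral endoderm genes 5 fell in LMS2* (71.4%), among them the endoderm factor Sox17, by at least 3.82-fold.

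Against ESC, where 26.3% of all genes passed, 3 of 8 primitive streak genes (37.5%) were higher in EpiSC lines: Lhx1, by at least 7.19-fold, Fgf8 (3.06 ± 0.89) and T (3.04 ± 0.85). Of 10 visceral endoderm genes 1 was higher, the forkhead gene Foxa2, by at least 4.29-fold, and 1 was lower, Amn (-1.64 ± 0.49), 20% in all. Lhx1 and Foxa2 were not detected in ESC and could only come out higher. Of 6 neuroectoderm genes 2 were higher (33.3%), En1 (3.88 ± 0.81) and Sox3, and of 9 BMP genes 1 (11.1%), Chrd (2.73 ± 0.83). The endoderm and BMP shares are below that of all genes against ESC. Against iPSC, where 42.3% of all genes passed, they were above it. There 5 BMP genes were higher and 1 lower (66.7%), and 1 endoderm gene was higher and 5 lower (60%).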
